A study of Mus musculus with 10 samples.

Results

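The tripartite motif (TRIM) genes of mouse macrophages were followed across doses and times of a Toll-like receptor 4 (TLR4) stimulus. They were taken by symbol, as every gene of the count table whose name starts with Trim followed by a digit, which gave 66 of 23284 genes. Bone marrow of C57BL/6J mice had been grown into macrophages in M-CSF, the growth factor of this lineage. The cultures then received Kdo2-lipid A, the part of lipopolysaccharide that TLR4 recognises, at 0.03 nM for 1 h or 2 h or at 10 nM for 1 h or 2 h, or were left untreated and labelled 0 h. Each of these 5 groups held 2 libraries of polyadenylated RNA, 1 from each of 2 experiments that the series describes as independent. No untreated cells were taken at 1 h or 2 h, so a change against untreated cells cannot be told apart from an effect of time or handling, whereas the doses can be compared at the same time. No gene was altered in these cells, and the labels give no number of animals behind a culture.

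TRIM proteins carry a RING domain, B-box zinc fingers and a coiled coil, and most act as E3 ubiquitin ligases, enzymes that attach ubiquitin to a chosen target. The C-terminal domain picks that target. In the largest class it is a PRY-SPRY domain, and others carry NHL, COS-FN3, ARF, MATH or filamin domains, a transmembrane segment, or, in the TIF1 class, a PHD finger and bromodomain that read chromatin. Several TRIM genes are known as interferon-induced antiviral factors, and their products act on the sensors RIG-I, MDA5 and cGAS and on the kinases behind them. In macrophages TLR4 activates NF-kB at once and interferon regulatory factors through the adaptor TRIF, and the interferon beta made in this way acts back on the same cells.

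The libraries held 33179599 to 42167096 counts, of which the TRIM genes together took 0.143% to 0.219%. Levels below are CPM, a gene's reads as a share of its library after TMM scaling, with experiment 1 given before experiment 2. Changes are log2 fold changes ± SE, and a change was called where its p, adjusted by Benjamini and Hochberg's method over all 12918 tested genes, was under 0.05 (edgeR quasi-likelihood test on all 10 libraries). With 2 libraries a group, p-values measure the spread between the experiments. Where groups are said not to overlap, this describes the values and is no test. The share of all genes without overlap was not counted. Scaling matters at 10 nM. Library totals in place of TMM lower the median change of all genes by 0.37 at 10 nM 1 h and 0.56 at 10 nM 2 h against untreated cells, by 0.36 and 0.49 between doses at 1 h and 2 h, by 0.19 between times at 10 nM and by 0.13 in the interaction of dose and time. All changes below are therefore relative to the bulk of genes. Macrophage markers summed to 23785 to 32541 CPM per library, against 18.4 to 37.6 CPM for neutrophil, 7.18 to 14.2 for dendritic cell, 4.92 to 9.74 for B cell, 0.143 to 6.02 for T and NK cell, 0 to 0.657 for erythroid, 0.0723 to 0.342 for mast cell (2 of its 4 markers at 0) and 46.9 to 118 for stromal and endothelial markers. In bulk RNA, fewer cells of a type and less RNA per cell cannot be told apart. Between the experiments, 25 interferon-stimulated genes differed by a median log2 of 0.52 in untreated cells and 1.05 at 0.03 nM 1 h, higher in experiment 2 for 25 of 25 genes in both groups.

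Of the 66 genes, 42 had enough counts to be tested and 24 did not. Of those not tested, 13 had a few reads (Trim69, Trim38, Trim29, Trim9, Trim55, Trim43b, Trim43c, Trim43a, Trim72, Trim10, Trim67, Trim30e-ps1 and Trim15, with at most 8 counts in a library). The other 11 had none in any library (Trim31, Trim40, Trim42, Trim50, Trim52, Trim54, Trim60, Trim61, Trim63, Trim71 and Trim75). Genes known from other tissues lie in both lists, with few reads for Trim67 and Trim9 of neurons and none for Trim63 of muscle and Trim71 of early embryos. Per length, the tested genes averaged 0.0312 to 70.5 RPKM over the 10 libraries, with a median of 6.96. Trim30a (70.5 RPKM) and Trim25 (59.3 RPKM) had the highest averages, followed by Trim8 (34.7) and Trim21 (31.2), and Trim66 (0.0312 RPKM) the lowest.

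At 10 nM 2 h, 28.6% of all tested genes were higher than in untreated cells and 30.1% lower. Of the 42 tested TRIM genes, 14 stood above untreated cells there and 18 below. Promoters are shown for 6 of those that rose and for Trim34a, which was not called, because all 7 hold the same short sequence near the start: the core of the interferon-stimulated response element (ISRE), GAAANNGAA on either strand. The 120-base stretches come from RefSeq promoters on GRCm38.p6, each written along its gene's own strand, with matches to that core in capitals. All run from 90 bases before the start to 29 after it, except that of Trim26, which runs from 200 to 81 bases before it. They cover chr7:102565453-102565572 (Trim21, minus strand), chr11:88999313-88999432 (Trim25, plus), chr17:36836946-36837065 (Trim26, plus), chr7:104465164-104465283 (Trim30a, minus), chr7:104507820-104507939 (Trim30d, minus), chr7:104353320-104353439 (Trim12c, minus) and chr7:104244367-104244486 (Trim34a, plus).
Trim21: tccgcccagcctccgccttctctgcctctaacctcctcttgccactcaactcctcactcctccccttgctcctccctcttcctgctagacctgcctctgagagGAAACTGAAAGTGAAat
Trim25: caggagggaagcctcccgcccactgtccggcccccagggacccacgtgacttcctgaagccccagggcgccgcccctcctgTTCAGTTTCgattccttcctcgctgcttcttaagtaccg
Trim26: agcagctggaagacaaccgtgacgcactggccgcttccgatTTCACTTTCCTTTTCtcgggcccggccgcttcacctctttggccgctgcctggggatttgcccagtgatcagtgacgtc
Trim30a: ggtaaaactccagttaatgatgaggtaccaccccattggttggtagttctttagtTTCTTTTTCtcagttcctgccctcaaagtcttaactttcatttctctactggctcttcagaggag
Trim30d: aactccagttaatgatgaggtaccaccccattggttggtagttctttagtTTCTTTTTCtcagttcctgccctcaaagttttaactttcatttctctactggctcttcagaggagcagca
Trim12c: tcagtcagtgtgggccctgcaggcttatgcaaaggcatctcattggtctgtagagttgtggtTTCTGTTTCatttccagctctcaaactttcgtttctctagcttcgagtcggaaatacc
Trim34a: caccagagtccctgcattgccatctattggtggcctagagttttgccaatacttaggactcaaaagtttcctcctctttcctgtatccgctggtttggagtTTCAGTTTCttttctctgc

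Trim21 and Trim26 hold 2 matches each that share 3 bases, and the others hold 1. The match of Trim34a is the same string as that of Trim25, so the core does not separate the gene that was not called from those that rose. The Trim30a and Trim30d stretches share a run of 79 identical bases, and the Trim12a stretch, which is not shown, shares one of 63 with that of Trim12c. Promoters of 300 bases were found for 50 of the 66 genes, 32 of them tested. The ISRE core lay in those of 7 of the 12 genes that stood higher at 10 nM 2 h (Trim12a, Trim12c, Trim21, Trim25, Trim26, Trim30a and Trim30d). It lay in 1 of 13 that stood lower (Trim7), in 3 of 7 not called (Trim2, Trim34a and Trim34b) and in 0 of 18 not tested. These are genes with a match in any of their promoters. Per promoter, 12 of the 64 of TRIM genes (18.8%) held it, against 8.56% of all 32851 promoters of that length. The other motifs were searched on both strands as well. The STAT site TTCNNNGAA lay in 0 of the 12 higher, 1 of the 13 lower, 1 of the 7 not called and 3 of the 18 not tested genes, and in 9.38% of TRIM promoters against 8.3% of all promoters. The NF-kB site GGANTTTCC lay in none of the 50 genes (1.25% of all promoters). The AP-1 site TGANTCA lay in 2 of the 12 higher genes (Trim30a and Trim30d), 0 of the 13 lower, 3 of the 7 not called and 4 of the 18 not tested, and in 15.6% of TRIM promoters against 7.81% of all. Genes with near-identical promoters are not independent cases, a match is a string of letters and not a measured binding site, and no test was made. The 12 higher genes include Trim58, which passed the low-count filter only through the 10 nM 2 h group.

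The count of TRIM genes called grew with dose and time, and so did that of all tested genes. The share of TRIM genes called in either direction was 0%, 14.3%, 42.9% and 76.2% at 0.03 nM 1 h and 2 h and 10 nM 1 h and 2 h. Among all tested genes it was 1.53%, 9.82%, 36.9% and 58.7%. At 0.03 nM 1 h, 0 of the 42 were called, where 1.42% of all tested genes were higher and 0.108% lower; 5 had an unadjusted p under 0.05, and DESeq2 and limma also called 0. At 0.03 nM 2 h 1 gene was higher (all genes 6.45%) and 5 were lower (3.37%). At 10 nM 1 h 3 were higher (18.5%) and 15 lower (18.3%), and at 10 nM 2 h 14 were higher (28.6%) and 18 lower (30.1%). In the order of the groups just given, the median change of the 42 genes was 0.04, -0.11, -0.27 and -0.31, where that of all tested genes lay between -0.03 and 0. With library totals 1 TRIM gene was higher and 5 lower at 0.03 nM 2 h, 2 and 23 at 10 nM 1 h, and 10 and 25 at 10 nM 2 h. The share of higher genes among all called genes was 65.7%, 50.3% and 48.8% in these comparisons by TMM, and 48.4%, 15.9% and 19.4% by library totals. With the experiment as a block, 5 TRIM genes were higher and 17 lower at 10 nM 1 h, where 2501 and 2446 of all 12918 tested genes were. The count of TRIM genes at 0.03 nM 2 h depended on which library was left out.

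**Figure D1:**
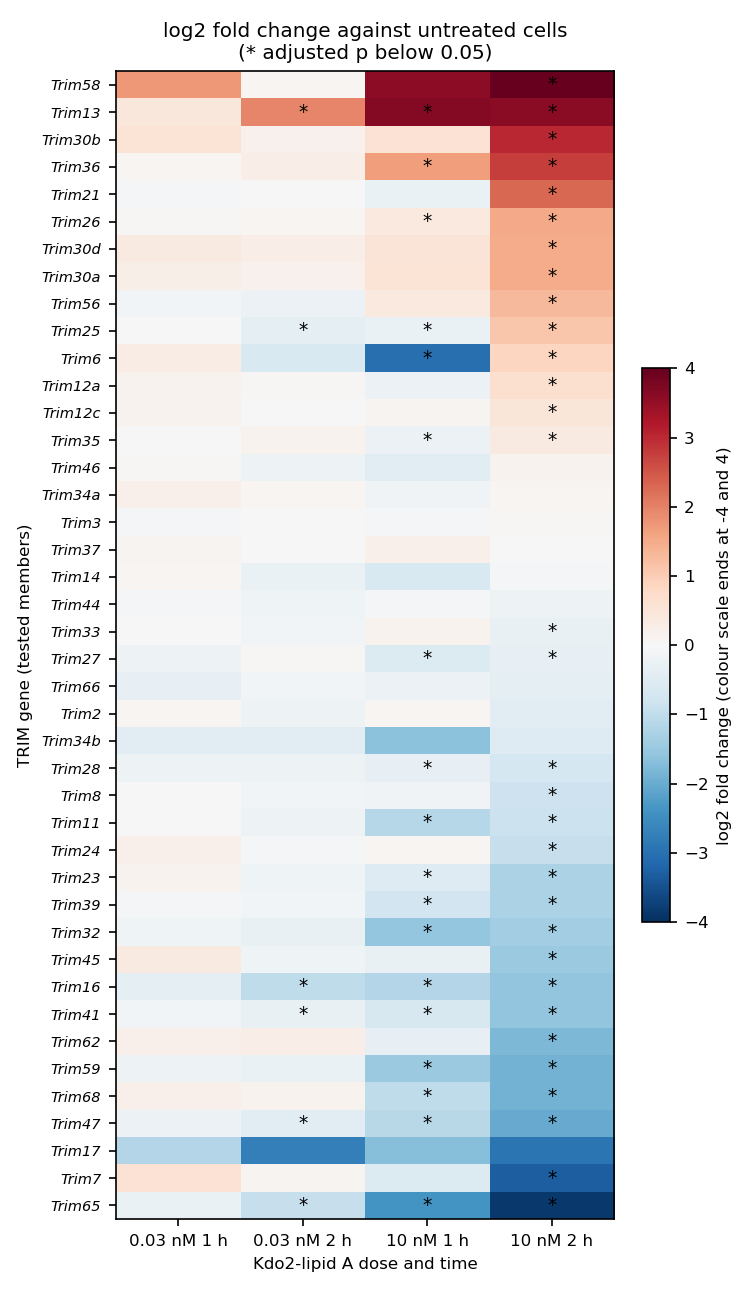
Log2 fold change against untreated cells of the 42 TRIM genes tested, 1 row per gene, at 0.03 nM 1 h, 0.03 nM 2 h, 10 nM 1 h and 10 nM 2 h (red higher, blue lower than untreated, colour scale ending at -4 and 4, asterisk for adjusted p below 0.05). The asterisks number 0, 6, 18 and 32 from left to right; the rises of Trim12c and Trim35 at 10 nM 2 h turn to -0.06 and -0.20 when libraries are scaled by their totals.

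Some TRIM genes linked to RNA and DNA sensing or to antiviral action, not a full list, went in both directions. Trim25 (chromosome 11, 88860717 to 88881607 on mm9, 9 exons) encodes the ligase that adds ubiquitin chains to the RNA sensor RIG-I. It had 270 and 302 CPM in untreated cells, 271 and 311 at 0.03 nM 1 h, 230 and 207 at 0.03 nM 2 h, 237 and 240 at 10 nM 1 h, and 606 and 621 at 10 nM 2 h. The level dipped below every untreated library in the 0.03 nM 2 h and 10 nM 1 h groups and stood above every other library at 10 nM 2 h, with no overlap in these comparisons. The change against untreated cells was 1.10 ± 0.09 at 10 nM 2 h (edgeR adjusted p = 6.92e-07), -0.39 ± 0.09 at 0.03 nM 2 h (0.0167) and -0.26 ± 0.09 at 10 nM 1 h (0.0397). Both falls rested on single libraries. That at 0.03 nM 2 h was not called on leaving out experiment 2 of the untreated or of the 0.03 nM 2 h group (edgeR adjusted p = 0.189 and 0.0671). That at 10 nM 1 h was not called on leaving out untreated experiment 2 (0.287), experiment 1 or 2 of 10 nM 1 h (0.172 and 0.143) or of 10 nM 2 h (0.0621 and 0.0614), nor in DESeq2 (0.0558) or limma (0.0597).

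Trim21 (chromosome 7, 109706436 to 109713983, mm9) encodes a cytosolic antibody receptor that marks antibody-coated virus for destruction. It had 47.8 and 52.0 CPM in untreated cells, 43.7 and 51.9 at 0.03 nM 1 h, 52.3 and 49.6 at 0.03 nM 2 h, 38.9 and 43.6 at 10 nM 1 h, and 233 and 254 at 10 nM 2 h. Only the 10 nM 2 h libraries stood clear above the rest, by 2.29 ± 0.10 over untreated cells (edgeR adjusted p = 3.43e-09). At 10 nM 1 h both libraries lay below both untreated ones, at -0.27 ± 0.10 (edgeR adjusted p = 0.0513; 0.0277 with the experiment as a block).

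Trim26, which encodes a ligase reported to drive turnover of the interferon regulatory factor IRF3, had 157 and 169 CPM at 10 nM 2 h, against 55.6 and 57.4 CPM in untreated cells. At 10 nM 1 h it had 71.7 and 75.4 CPM, also above both untreated libraries. The rise was 1.53 ± 0.08 at 10 nM 2 h (edgeR adjusted p = 1.87e-08) and 0.38 ± 0.08 at 10 nM 1 h (0.00335), and the earlier one shrank to 0.01 with library totals (0.891). Trim56, which encodes an antiviral ligase reported to modify cGAS and STING, had 59.1 and 67.0 CPM at 10 nM 2 h, against 23.7 and 28.0 in untreated cells. It rose by 1.29 ± 0.24 (edgeR adjusted p = 0.0015) at 10 nM 2 h. It had 33.3 and 34.6 CPM at 10 nM 1 h, also above both untreated libraries, but the difference of 0.39 ± 0.24 was not called (0.241). Its 0.03 nM 2 h libraries differed most, at 28.8 CPM in experiment 1 and 15.7 CPM in experiment 2.

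Trim65 (chromosome 11, 115986022 to 115992442, mm9), which encodes a ligase of the RNA sensor MDA5, moved the other way. Levels were 17.5 and 19.2 CPM in untreated cells, 15.6 and 15.2 at 0.03 nM 1 h, 11.3 and 7.96 at 0.03 nM 2 h, 3.99 and 2.99 at 10 nM 1 h, and 1.54 and 0.992 at 10 nM 2 h. Each of the last 3 groups lay below all untreated libraries, and the 5 groups did not overlap. The fall was -3.85 ± 0.24 at 10 nM 2 h (edgeR adjusted p = 4.75e-08), the largest of any TRIM gene there. It was -2.40 ± 0.20 at 10 nM 1 h (1.71e-06) and -0.93 ± 0.18 at 0.03 nM 2 h (0.0062), the last not called on leaving out untreated experiment 2 (0.0645). Trim14, which encodes an adaptor without a RING domain that binds the RIG-I partner MAVS, had 23.4 and 25 CPM at 10 nM 1 h, against 32.1 and 41.5 CPM in untreated cells. The groups did not overlap, but the difference of -0.60 ± 0.21 was not called (edgeR adjusted p = 0.052; 0.0267 with the experiment as a block).

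**Figure D2:**
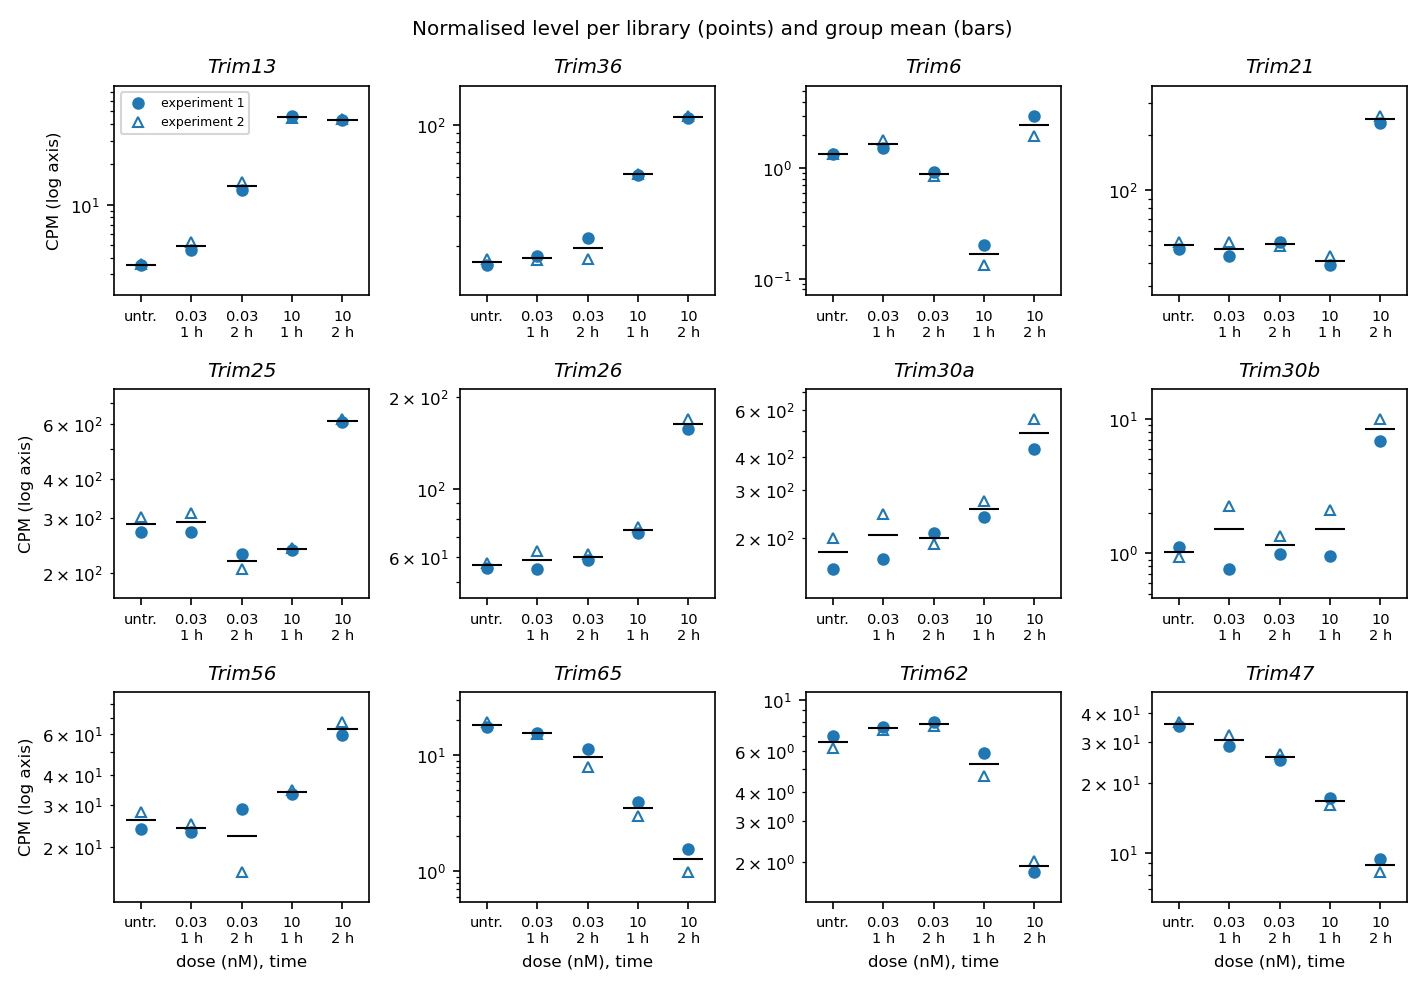
CPM per library (log axis; filled circles experiment 1, open triangles experiment 2, bars the group mean) of 12 TRIM genes in untreated cells and at 0.03 nM 1 h, 0.03 nM 2 h, 10 nM 1 h and 10 nM 2 h. Trim13 and Trim36 are already raised at 10 nM 1 h, Trim21, Trim25 and Trim30b only at 10 nM 2 h, Trim6 is lowest at 10 nM 1 h, and Trim65 and Trim47 step down from group to group.

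A cluster on chromosome 7 holds Trim6, Trim12a, Trim12c, Trim30a, Trim30b, Trim30d, Trim34a, Trim34b and the pseudogene Trim30e-ps1, 9 entries of which 8 were tested. It is the mouse counterpart of the human region with the retroviral restriction factor TRIM5. At 10 nM 2 h 6 of the 8 were higher and 0 lower, with a median change of 0.76, where 28.6% of all genes were higher and 30.1% lower. None were higher and 1 lower at 10 nM 1 h, where the shares of all genes were 18.5% and 18.3%. Trim30a, known in mice for a product that limits NF-kB signalling through the adaptors TAB2 and TAB3, had 429 and 553 CPM at 10 nM 2 h, against 154 and 199 in untreated cells. Its rise was 1.48 ± 0.21 (edgeR adjusted p = 0.000326). At 10 nM 1 h, with 239 and 274 CPM, it stood at 0.54 ± 0.21, called only with the experiment as a block (0.0748 without it, 0.00818 with it). Trim30d had 135 and 190 CPM at 10 nM 2 h, against 47.0 and 69.4 in untreated cells, a rise of 1.48 ± 0.33 (edgeR adjusted p = 0.00737). Its change at 10 nM 1 h was 0.51 ± 0.33 (0.285; 0.0372 with the block). Trim30b was scarce before the stimulus and had 6.86 and 9.99 CPM at 10 nM 2 h, against 1.12 and 0.94 in untreated cells, a rise of 3.03 ± 0.48 (edgeR adjusted p = 0.000371).

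The TRIM5 relatives of the cluster changed less. Trim12a had 43.2 and 49.7 CPM at 10 nM 2 h, against 28.2 and 30.9 in untreated cells (0.65 ± 0.12, edgeR adjusted p = 0.000634), and with library totals the change was 0.09 (0.49). Trim12c had 87.8 and 104 CPM, against 63.3 and 72.6 (0.50 ± 0.13, edgeR adjusted p = 0.00612), and with library totals it turned to -0.06 (0.677). The groups did not overlap in either gene, and the Trim12c call depended on untreated experiment 1 (0.0624 on leaving it out) and on 10 nM 2 h experiment 2 (0.068). Trim34a, whose promoter holds the ISRE core, had 32.5 and 38.9 CPM at 10 nM 2 h, against 29.6 and 38.6 in untreated cells. Its values overlapped between all groups. Trim34b reached at most 0.386 CPM in any library. Reads can be split between these neighbours. Of the distinct 50-base words in their transcripts, Trim34b shares 56.8% and Trim34a 39.8% with each other, Trim12c shares 33% with other genes, Trim12a 10.4%, Trim30d 7.49% and Trim30a 5.98%.

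Trim6, whose human counterpart makes free ubiquitin chains that activate the kinase IKBKE, followed a course of its own. It had 1.36 and 1.35 CPM in untreated cells, 1.54 and 1.80 at 0.03 nM 1 h, 0.931 and 0.861 at 0.03 nM 2 h, 0.202 and 0.132 at 10 nM 1 h, and 2.99 and 1.95 at 10 nM 2 h. The 10 nM libraries were the lowest of all at 1 h and the highest at 2 h. The change against untreated cells was -3.0 ± 0.40 at 10 nM 1 h (edgeR adjusted p = 9.3e-05) and 0.87 ± 0.30 at 10 nM 2 h (0.0249). The later rise was not called on leaving out untreated experiment 1 or 2 (edgeR adjusted p = 0.0898 and 0.0933) or 10 nM 2 h experiment 1 (0.243), or with library totals (0.31, 0.356).

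Trim13 and Trim36 had already risen at 10 nM 1 h. Trim13 (chromosome 14, 62217063 to 62224782, mm9, 4 exons) encodes a ligase anchored in the endoplasmic reticulum with a role in protein degradation there. It had 3.5 and 3.59 CPM in untreated cells, 4.56 and 5.20 at 0.03 nM 1 h, 12.9 and 14.9 at 0.03 nM 2 h, 46.2 and 44.4 at 10 nM 1 h, and 43.2 and 43.5 at 10 nM 2 h. Every stimulated library lay above the untreated ones. The change was 0.46 ± 0.12 at 0.03 nM 1 h (edgeR adjusted p = 0.141), 1.97 ± 0.11 at 0.03 nM 2 h (5.14e-07), 3.67 ± 0.11 at 10 nM 1 h (3.25e-10) and 3.61 ± 0.11 at 10 nM 2 h (2.07e-10). It was the single TRIM gene called higher at 0.03 nM, and none of these calls was lost without a library. Of its 50-base words 14.2% also occur in the gene model Gm9359.

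Trim36, on chromosome 18, encodes a ligase associated with microtubules. Levels were 15.6 and 16.9 CPM in untreated cells, 17.6 and 16.7 at 0.03 nM 1 h, 22.3 and 16.9 at 0.03 nM 2 h, 51.6 and 52.4 at 10 nM 1 h, and 110 and 113 at 10 nM 2 h. The 0.03 nM 1 h libraries overlapped with the untreated ones. Those at 0.03 nM 2 h lay above them by very little at the lowest (16.933 against 16.923 CPM) and were not called. Both 10 nM groups stood clear of the low dose. The rise was 1.68 ± 0.11 at 10 nM 1 h (edgeR adjusted p = 2.76e-07) and 2.78 ± 0.12 at 10 nM 2 h (1.9e-09).

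Trim58, known in erythroblasts for removing the motor protein dynein before the nucleus is expelled, was close to absent outside 1 group. It had 45 counts over both 10 nM 2 h libraries, against 1 count over both untreated libraries, a ratio of 62.9 with a 95% counting interval of 10.7 to 2539 that covers counting error only. In CPM these were 0.919 and 0.581 at 10 nM 2 h and 0.0238 and 0 in untreated cells. The fitted change was 5.63 ± 1.15 (edgeR adjusted p = 0.00114), and 7.81 or 4.79 on leaving out untreated experiment 1 or 2. Only the 10 nM 2 h libraries, with 28 and 17 counts, reached 10 counts, so the gene passed the filter through the group where it is high and had to differ there, and its p is no support. Without it 13 TRIM genes were higher at 10 nM 2 h. The erythroid markers Hbb-b1, Hba-a1, Hba-a2 and Klf1 reached at most 0.0482, 0.328, 0.328 and 0.169 CPM in any library. Trim35, a PRY-SPRY ligase gene, had 132 and 133 CPM at 10 nM 2 h, against 103 and 104 in untreated cells, and 90.0 and 84.5 CPM at 10 nM 1 h. It stood at 0.36 ± 0.07 at 10 nM 2 h (edgeR adjusted p = 0.000889), which turned to -0.20 with library totals (0.0208), and at -0.24 ± 0.07 at 10 nM 1 h (0.0178). The fall was not called on leaving out untreated experiment 1 or 2 (0.0821 and 0.1) or 10 nM 1 h experiment 2 (0.153). Its exons overlap 105 bases of 1700001G11Rik on the other strand, and with the use of strand in counting not given in the sources used here, reads in that stretch, of 3684 exonic bases in all, cannot be told apart.

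The PRY-SPRY class went both ways at 10 nM 2 h, with 11 higher and 9 lower of its 23 tested genes, where 28.6% of all genes were higher and 30.1% lower. The 11 include Trim58, whose p is no support. The 9 lower ones, Trim65 among them, lie outside the cluster. Trim47 had 9.36 and 8.28 CPM at 10 nM 2 h, against 35.2 and 36.4 in untreated cells (-2.02 ± 0.10, edgeR adjusted p = 1.11e-08). Of its 50-base words 6.58% also occur in Trim65, and 3.05% of those of Trim65 occur in Trim47. Trim41, whose human product degrades protein kinase C, had 28.5 and 28.8 CPM, against 87.5 and 85.1 (-1.59 ± 0.08, edgeR adjusted p = 9.29e-09). Trim68, an androgen receptor partner in human cells, had 1.05 and 1.03 CPM, against 3.95 and 3.81 (-1.90 ± 0.20, edgeR adjusted p = 5.84e-06). In all of them the 10 nM 2 h libraries lay far below the untreated ones. Trim62, which encodes the ligase of the fungal-signalling adaptor CARD9, had 1.81 and 2.02 CPM, against 6.98 and 6.17 (-1.78 ± 0.17, edgeR adjusted p = 2.92e-06). Trim7, named for a product that binds glycogenin, had 0.0985 and 0.0342 CPM, against 0.834 and 0.554 (-3.31 ± 0.71, edgeR adjusted p = 0.00154), and -4.22 on leaving out 10 nM 2 h experiment 1. Trim39, a regulator of the anaphase-promoting complex, had 5.84 and 5.95 CPM, against 14.3 and 14.1 (-1.27 ± 0.11, edgeR adjusted p = 1.19e-06). Groups did not overlap in these either. Trim11 had 15.3 and 14.0 CPM, against 26.7 and 26.1 (-0.85 ± 0.09, edgeR adjusted p = 6.79e-06). Trim27, known in human tumours as a fusion partner of RET, had 32.5 and 32.6 CPM, against 39.8 and 42.3 (-0.34 ± 0.08, edgeR adjusted p = 0.00475), the smallest of these falls.

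The falls differed in when they appeared. At 10 nM 1 h, Trim47 stood at -1.10 ± 0.10, Trim68 at -1.01 ± 0.18, Trim11 at -1.13 ± 0.09, Trim39 at -0.78 ± 0.11, Trim41 at -0.63 ± 0.08 and Trim27 at -0.55 ± 0.08, all called (edgeR adjusted p of 1.32e-06 to 0.000874). Trim62 and Trim7 were not called at that time (-0.32 ± 0.15 and -0.55 ± 0.49). At 0.03 nM 2 h, Trim47 (-0.47 ± 0.10, edgeR adjusted p = 0.00822) and Trim41 (-0.29 ± 0.08, 0.0333) were lower than untreated cells. Trim47 was not called on leaving out untreated experiment 1 or 2 (0.0501 and 0.0784). Trim41 was not called on leaving out any 1 of 8 libraries, all but those of 0.03 nM 2 h, while its value stayed between -0.31 and -0.27.

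Among the other classes, Trim59, which encodes a transmembrane ligase, had 4.96 and 3.32 CPM at 10 nM 2 h, against 14.8 and 15.9 in untreated cells (-1.89 ± 0.18, edgeR adjusted p = 2.12e-06). Trim16, which lacks a RING domain and takes part in the autophagy of damaged membranes, had 4.66 and 4.51 CPM, against 13.2 and 14.3 (-1.58 ± 0.15, 2.43e-06). It fell at the low dose as well, to 7.12 and 6.55 CPM at 0.03 nM 2 h (-1.01 ± 0.14, edgeR adjusted p = 0.000675), a call kept without any library. Trim32, an NHL-domain gene mutated in human muscular dystrophy, had 6.01 and 6.53 CPM at 10 nM 2 h, against 15.9 and 17.2 (-1.40 ± 0.13, 1.71e-06). Trim59, Trim16 and Trim32 had most of this fall by 10 nM 1 h, at -1.48 ± 0.17, -1.18 ± 0.14 and -1.53 ± 0.13 (edgeR adjusted p = 2.47e-05, 4.56e-05 and 1.66e-06). Trim23, which carries an ARF GTPase domain, had 5.22 and 6.67 CPM at 10 nM 2 h, against 14.6 and 14.0 (-1.26 ± 0.17, 4.53e-05). Its smaller fall at 10 nM 1 h (-0.51 ± 0.16, 0.0258) was not called on leaving out untreated experiment 1 or 2 (0.118 and 0.0752) or 10 nM 1 h experiment 2 (0.195). Trim45, with a filamin domain, had 0.558 and 0.752 CPM at 10 nM 2 h, against 2.14 and 1.57 (-1.50 ± 0.31, 0.00115). Trim8, reported to act on the kinase TAK1 upstream of NF-kB, had 70.1 and 75.0 CPM, against 125 and 131 (-0.82 ± 0.07, 1.27e-06). In each of these genes both 10 nM 2 h libraries lay below both untreated libraries.

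The TIF1 class acts on chromatin in the nucleus. At 10 nM 2 h 3 of its 4 genes were lower and 0 higher, where 30.1% of all genes were lower and 28.6% higher, and the call of Trim33 among the 3 was lost in several fits. Trim24, a coregulator of nuclear receptors, had 10.2 and 10.7 CPM, against 19.8 and 19.7 in untreated cells (-0.92 ± 0.11, edgeR adjusted p = 1.34e-05). Trim28, the corepressor KAP1 recruited by KRAB zinc finger proteins to silence retroelements, had 71.2 and 69.3 CPM, against 113 and 114 (-0.70 ± 0.08, 1.24e-05). Trim28 was also lower at 10 nM 1 h (-0.32 ± 0.08, edgeR adjusted p = 0.00805), a call that needed experiment 2 of both groups (0.0508 on leaving out the untreated one, 0.0965 the other). Trim33, a regulator of SMAD signalling, had 40.9 and 39.5 CPM at 10 nM 2 h, against 47.8 and 50.6 (-0.29 ± 0.11, 0.0356). The Trim33 call was lost on leaving out any 1 untreated, 10 nM 1 h or 10 nM 2 h library (0.0525 to 0.16), in DESeq2 (0.0762) and in limma (0.0665). Trim66 had 0.145 to 0.548 CPM over the 10 libraries and was not called, with fitted changes of -0.37 to 0.20.

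The doses were compared at the same time, where untreated cells play no part in the difference. At 1 h, 10 nM gave 3 TRIM genes higher (all genes 18%) and 17 lower (17.3%) than 0.03 nM, and at 2 h 14 higher (25.6%) and 17 lower (27.2%). The 14 include Trim58, which passed the filter only through the 10 nM 2 h group, so its call is no support. Median changes of the 42 genes were -0.32 and -0.12, against -0.01 and -0.03 for all genes. With library totals these counts were 2 higher and 28 lower at 1 h, and 10 higher and 23 lower at 2 h. The share of higher genes among all called genes was 50.9% at 1 h and 48.5% at 2 h by TMM, and 15.5% and 18.4% by library totals. Trim13 differed by 3.21 ± 0.11 at 1 h and by 1.64 ± 0.10 at 2 h (edgeR adjusted p = 1.1e-09 and 8.36e-08). Trim6 differed by -3.30 ± 0.40 at 1 h, with 0.202 and 0.132 CPM at 10 nM, against 1.54 and 1.80 CPM at 0.03 nM, and by 1.46 ± 0.31 at 2 h (edgeR adjusted p = 4.12e-05 and 0.00173). Trim14 was called in this comparison alone, with 23.4 and 25 CPM at 10 nM 1 h, against 32.3 and 45.3 CPM at 0.03 nM 1 h (-0.68 ± 0.21, edgeR adjusted p = 0.0337). That call was lost on leaving out experiment 2 of 0.03 nM 1 h (0.188) or experiment 1 or 2 of 0.03 nM 2 h (0.075 and 0.0754) or of 10 nM 1 h (0.146 and 0.1).

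Smaller dose differences also depended on a library or on the scaling. At 1 h, Trim26 differed by 0.32 ± 0.08 (edgeR adjusted p = 0.01), which became -0.04 with library totals and was not called on leaving out 0.03 nM 1 h experiment 1 (0.117) or 10 nM 1 h experiment 2 (0.0843). Trim12a differed by -0.37 ± 0.12 at 1 h (edgeR adjusted p = 0.0363), a call lost on leaving out either untreated library (0.0507 and 0.0513), 0.03 nM 1 h experiment 2 (0.317) or either 10 nM 1 h library (0.211 and 0.0824). At 2 h, Trim35 (0.23 ± 0.07, edgeR adjusted p = 0.0165) and Trim12c (0.47 ± 0.13, 0.00933) turned to -0.26 and -0.02 with library totals. Trim35 was not called on leaving out either 10 nM 2 h library (0.0628 and 0.0795), nor Trim12c on leaving out 0.03 nM 2 h or 10 nM 2 h experiment 2 (0.164 and 0.0956). Trim30d differed by 1.23 ± 0.33 at 2 h (edgeR adjusted p = 0.0181), not called on leaving out either 0.03 nM 2 h library (0.111 and 0.142) or 10 nM 2 h experiment 2 (0.084). Trim34a was lower at 10 nM 1 h than at 0.03 nM 1 h, and Trim7 likewise, only with the experiment as a block (-0.34 and -1.16, edgeR adjusted p = 0.0186 and 0.0367).

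**Figure D3:**
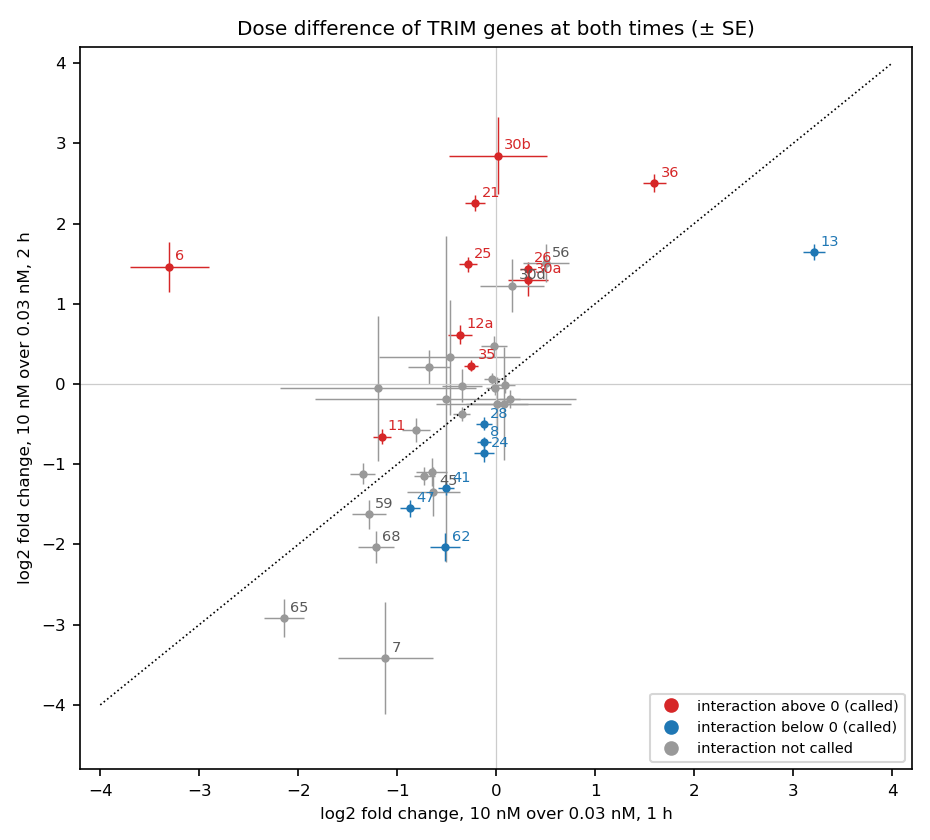
Log2 fold change of 10 nM over 0.03 nM ± SE at 1 h (horizontal axis) and at 2 h (vertical axis) for the tested TRIM genes except Trim58, with numbers for gene names and a dotted line of equal change. Genes whose interaction of dose and time was called are red (above 0) or blue (below 0); Trim6 lies at -3.30 and 1.46, Trim21 at -0.21 and 2.26, and Trim13 below the line at 3.21 and 1.64. With library totals the values of Trim12c and Trim35 at 2 h and of Trim26 at 1 h change sign.

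Over time, 2 h differed from 1 h at 0.03 nM in 1 TRIM gene that was higher (all genes 3.51%) and 2 that were lower (1.59%). Trim13 was higher by 1.51 ± 0.11 (edgeR adjusted p = 2.29e-05). Trim16 was lower by -0.64 ± 0.14 (0.024) and Trim25 by -0.41 ± 0.09 (0.0209). The last 2 rested on single libraries. Trim16 was not called on leaving out 0.03 nM 1 h experiment 1 (0.263) or 0.03 nM 2 h experiment 2 (0.0944). Trim25 was not called on leaving out experiment 2 of either low-dose group (-0.31 at 1 h and -0.33 at 2 h). Its call was also lost without either 10 nM 1 h library, which is outside this comparison, with the value still at -0.41. The number of TRIM genes called in this comparison depended on which library was left out. With the experiment as a block Trim65 was lower too (-0.69, edgeR adjusted p = 0.034; 0.0574 without the block). At 10 nM, 12 TRIM genes were higher at 2 h than at 1 h (all genes 21.3%) and 13 lower (21.5%), or 10 and 18 with library totals. The median change of the 42 was 0.03, where that of all genes was 0. The share of higher genes among all called genes was 68.8% at 0.03 nM and 49.7% at 10 nM by TMM, and 54.1% and 29.2% by library totals.

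The later rises at 10 nM were led by Trim6 (3.87 ± 0.39), Trim21 (2.56 ± 0.10), Trim30b (2.46 ± 0.47), Trim25 (1.36 ± 0.09), Trim26 (1.15 ± 0.08) and Trim36 (1.10 ± 0.11), with edgeR adjusted p of 2.28e-08 to 0.00203. Trim30b stood at 3.13 on leaving out 10 nM 1 h experiment 2. Trim13, in contrast, was level between 1 h and 2 h (-0.06 ± 0.10). Trim30d was higher at 2 h by 0.97 ± 0.33 only with the experiment as a block (edgeR adjusted p = 0.0521 without it, 0.00153 with it), and so was Trim14 (0.53 ± 0.21; 0.0733 and 0.0411). Among the later falls were Trim7 (-2.76 ± 0.74), Trim62 (-1.47 ± 0.18), Trim65 (-1.45 ± 0.26) and Trim24 (-0.99 ± 0.11), with edgeR adjusted p of 1.85e-05 to 0.0104. The Trim7 call was lost on leaving out 10 nM 1 h experiment 1 (-2.07, edgeR adjusted p = 0.0917) or 10 nM 2 h experiment 2 (-2.23, 0.0778), and the value was -3.67 on leaving out 10 nM 2 h experiment 1. Of the 25 calls between times at 10 nM, 17 held in every fit that left out a library.

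The interaction asks whether the dose difference itself changed between 1 h and 2 h. It was called above 0 for 10 TRIM genes (all genes 10.4%) and called below 0 for 7 (11.6%), or for 8 and 9 with library totals. Among all called genes 47.4% were above 0 by TMM and 30.9% by library totals. The median of the 42 was 0.17, against -0.02 for all genes. The PRY-SPRY class held 9 of the 10 genes above 0 and 3 of the 7 below 0, and 23 of the 42 tested genes. Among the called genes, Trim6 (4.77 ± 0.51), Trim30b (2.83 ± 0.69), Trim21 (2.47 ± 0.14) and Trim25 (1.78 ± 0.13) had the largest positive values (edgeR adjusted p = 5.77e-05, 0.0158, 1.27e-06 and 4.06e-06). Trim13 (-1.57 ± 0.15) and Trim62 (-1.52 ± 0.23) had the largest negative ones among called genes (edgeR adjusted p = 2.16e-05 and 0.000669), while the lowest value of any TRIM gene, -2.30, was not called. The Trim30b call was lost on leaving out 0.03 nM 1 h experiment 2 (1.86, edgeR adjusted p = 0.0605), 0.03 nM 2 h experiment 1 (2.63, 0.0684) or 10 nM 2 h experiment 2 (2.53, 0.0531), and its value was 3.51 on leaving out 10 nM 1 h experiment 2. With the experiment as a block Trim14 (0.85) and Trim30d (0.99) were also above 0 and Trim68 (-0.82) below it (edgeR adjusted p = 0.0385, 0.0165 and 0.0442).

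The tested genes that were called in none of the 9 comparisons were Trim34a, Trim44, Trim3, Trim37, Trim2, Trim34b, Trim46, Trim17 and Trim66. Trim34a (13.7 RPKM), Trim44 (12.6) and Trim3 (12.3) were the most abundant of them per length. Trim44, a TRIM gene without a RING domain, stayed within -0.20 and -0.02 in all 9 comparisons, and Trim3, an NHL-domain gene, within -0.08 and 0.13. At 10 nM 2 h Trim3 had 36.7 and 39.0 CPM, against 36.7 and 36.8 in untreated cells. Trim46, Trim17, Trim34b and Trim66 averaged 0.0312 to 0.119 RPKM, and their fitted changes ran from -2.92 to 1.14 without a call.

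The experiments, with 1 library each in a group, did not differ equally in every group. Trim30d was higher in experiment 2 by a log2 of 0.56 in untreated cells, 0.84 at 0.03 nM 1 h, -0.08 at 0.03 nM 2 h, 0.31 at 10 nM 1 h and 0.49 at 10 nM 2 h. The 25 interferon-stimulated genes had medians of 0.52, 1.05, 0.18, 0.25 and 0.25 in the same groups, and the 8 tested cluster genes 0.29, 0.55, -0.04, 0.25 and 0.25. Trim28 differed by 0.01, -0.07, 0.15, -0.13 and -0.04. Trim30d and Trim14 gained calls in 3 comparisons each with the experiment as a block, more than any other TRIM gene, and the part of this difference in their results was not tested. Stromal and endothelial markers were also higher in experiment 2, by medians of 0.78 to 1.13.

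**Figure D4:**
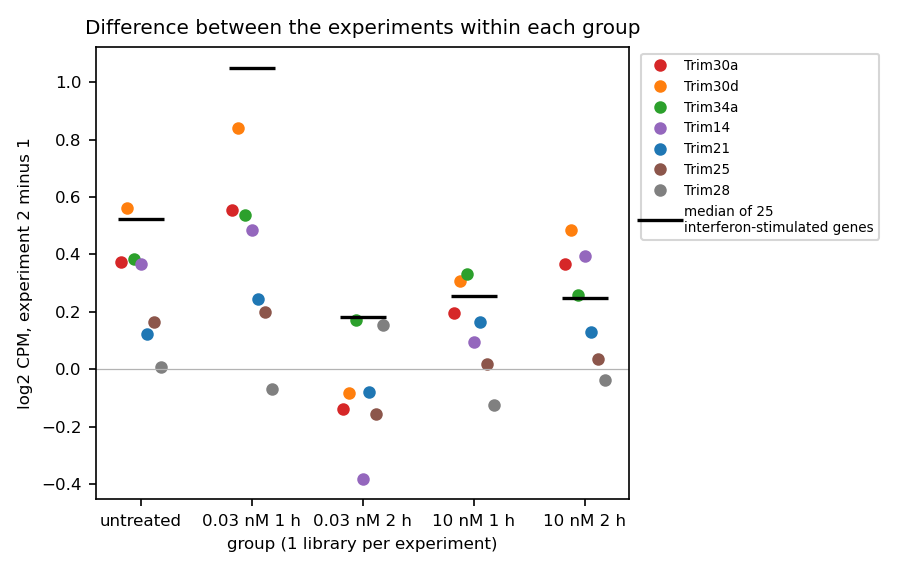
Log2 CPM of experiment 2 minus experiment 1 within each group (1 library each) for 7 TRIM genes chosen after their values were seen, with a bar for the median of 25 interferon-stimulated genes. Trim30d and the bar are highest at 0.03 nM 1 h (0.84 and 1.05), while Trim28 stays between -0.13 and 0.15.

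Partners of the TRIM ligases were measured in the same libraries. Interferon beta (Ifnb1) averaged 0.12 ± 0.0349 CPM in untreated cells, 0.336 ± 0.0665 at 0.03 nM 1 h, 0.59 ± 0.215 at 0.03 nM 2 h, 98.3 ± 6.12 at 10 nM 1 h and 39.6 ± 9.46 at 10 nM 2 h (SD, n = 2). It rose by 2.29 ± 0.52 at 0.03 nM 2 h (edgeR adjusted p = 0.0166), by 9.64 ± 0.28 at 10 nM 1 h (edgeR adjusted p = 3.25e-10) and by 8.33 ± 0.29 at 10 nM 2 h (6.77e-10), and at 10 nM it was lower at 2 h than at 1 h by a log2 of -1.31 ± 0.15 (3.35e-05), where Trim21 and Trim25 were higher. Of the 25 interferon-stimulated genes 0 were called at 0.03 nM 1 h, 2 at 0.03 nM 2 h, 9 at 10 nM 1 h and 23 at 10 nM 2 h, all higher (0, 8, 14 and 25 with the experiment as a block, which also called 1 lower at 10 nM 1 h). The shares of all genes called higher in these groups were 1.42%, 6.45%, 18.5% and 28.6%, so that 2 of 25 at 0.03 nM 2 h lay near the background. With the block, 207, 905, 2501 and 3754 of all 12918 tested genes were higher. At 10 nM 2 h the guanylate-binding genes Gbp2 and Gbp3 stood at 3.65 ± 0.17 and 3.59 ± 0.18, the nucleotide kinase gene Cmpk2 at 4.63 ± 0.36 and the interferon signalling gene Irf9 at 0.76 ± 0.10. The list median was 2.52 there, beside 0.76 for the chromosome 7 cluster. Library totals lower the median change of all genes by 0.56 in this comparison, which matters most for small rises such as that of Irf9.

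A list drawn up for RIG-I and cGAS signalling also held Nlrp3, of the inflammasome, and Tab2, of NF-kB signalling. Of its 17 tested genes 14 were higher and 1 lower at 10 nM 2 h, or 12 and 1 of 15 without Nlrp3 and Tab2, where 28.6% of all genes were higher and 30.1% lower. Nlrp3 stood at 4.27 ± 0.11, Tank, which encodes an adaptor of the kinase TBK1, at 2.81 ± 0.10, and Tab2, a target of the Trim30a product, at 1.54 ± 0.08. Mavs, the adaptor gene downstream of RIG-I and MDA5, was the one that fell, to 19.3 and 17.7 CPM at 10 nM 2 h, against 50.2 and 57.5 CPM in untreated cells (-1.54 ± 0.09, edgeR adjusted p = 3.64e-08). Among 20 genes of ubiquitin and its conjugating enzymes 16 were higher and 2 lower, with the same shares of all genes. Ube2z stood at 1.37 ± 0.08, Ube2n, whose product builds the ubiquitin chains used in NF-kB signalling, at 1.25 ± 0.07, and Ube2d3 at 1.15 ± 0.07.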

How the data were processed

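The deposited table gave raw counts per gene, made by the authors with TopHat2 2.0.11 and featureCounts 1.4.5-p1 on mm9 after bcl2fastq 2.15.0.4, per the submitters' processing notes. Their second table held regularised log2 values made by the authors, and the notes name DESeq2. The exonic length of each gene model came from the deposited count table, per the file headers. The kit was directional, but the use of strand in counting is not given in the sources used here.

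Counts were fitted in R 4.3.3 with edgeR 4.0.16 (filterByExpr, TMM, robust glmQLFit, glmQLFTest), with 1 mean for each of the 5 groups and 5 residual degrees of freedom. The SE is the size of the log2 fold change over the square root of F. RPKM divides CPM by exonic length. The script was tested on simulated data. The experiment number in the labels marks a shared experiment, so a fit with it as a block was also made. Deviations of same-numbered libraries correlated at 0.0397 to 0.236 over 10 pairs of groups (median 0.177, 7 above 0.1). Alternatives were DESeq2 1.42.0, limma 3.58.1 on the deposited log2 values, other scalings, no filter, only the groups compared, and each library left out. The TRIM genes and the lists were chosen with earlier results of these data known. Every TRIM gene called in any comparison was named, and of the lists up to 4 called genes by smallest p. Some genes of the lists are not reported here by name.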

Additional observations from a re-analysis of the deposited data

Results flagged for a closer look

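The difference between 10 nM and 0.03 nM changed from 1 h to 2 h in 17 TRIM genes, tested as an interaction in the edgeR fit of all 10 libraries. The share called in either direction was 40.5% of the tested TRIM genes, against 22% of all tested genes. A positive interaction means a more positive or less negative difference at 2 h, the latter for Trim11, which was lower at 10 nM at both times. The interaction was positive for Trim6 (4.77), Trim30b (2.83), Trim21 (2.47), Trim25 (1.78), Trim26 (1.12) and Trim12a (0.98). It was also positive for Trim30a (0.98), Trim36 (0.91), Trim11 (0.50) and Trim35 (0.48). It was negative for Trim13 (-1.57), Trim62 (-1.52), Trim41 (-0.79), Trim24 (-0.74), Trim47 (-0.68), Trim8 (-0.60) and Trim28 (-0.37). The calls of Trim11, Trim28, Trim30a and Trim30b were each lost on leaving out at least 1 library, with edgeR adjusted p of up to 0.0724, 0.157, 0.231 and 0.0684. Trim11 needed 0.03 nM 1 h experiment 2, both 10 nM 1 h libraries and 10 nM 2 h experiment 1. Trim28 needed both libraries of the 0.03 nM 1 h and 10 nM 2 h groups and 10 nM 1 h experiment 1. Its call was also lost without either untreated library, though untreated cells play no part in the interaction, and its value stayed at -0.37. Trim30a needed 0.03 nM 1 h experiment 2, both 0.03 nM 2 h and 10 nM 1 h libraries and 10 nM 2 h experiment 2. Trim30b needed 0.03 nM 1 h experiment 2, 0.03 nM 2 h experiment 1 and 10 nM 2 h experiment 2. With library totals the calls of Trim11 and Trim30a were lost (edgeR adjusted p = 0.0568 and 0.0666). With no filter on low counts that of Trim30a was lost too (edgeR adjusted p = 0.143).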

How the results depend on the processing

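Of the 152 calls over the 9 comparisons, the replicate block kept 152 of 152 and added the 12 given with the results. Of the 152, 150 held with DESeq2's size factors, 149 in DESeq2, 150 in limma, 148 with no filter and 138 with library totals. With library totals 5 changed direction: at 10 nM 2 h against untreated cells Trim35 (-0.20) and Trim12c (-0.0613), between doses at 2 h Trim35 (-0.26) and Trim12c (-0.0179), and between doses at 1 h Trim26 (-0.0374). Fitting only the groups compared gave 3 TRIM genes in place of 6 at 0.03 nM 2 h, and 1 in place of 3 between times at 0.03 nM; this fit uses fewer samples. Leaving out 1 library gave 0 calls at 0.03 nM 1 h, 2 to 10 at 0.03 nM 2 h, 14 to 22 at 10 nM 1 h and 29 to 33 at 10 nM 2 h. Between doses it gave 13 to 20 at 1 h (13 without 10 nM 1 h experiment 2) and 28 to 31 at 2 h. Between times it gave 2 to 10 at 0.03 nM and 21 to 29 at 10 nM, and 13 to 21 for the interaction. In all, 116 of the 152 calls held in every such fit. Calls among all genes were not counted in the fits with a library left out or with only the groups compared. The counts of those fits thus have no background beside them. Depth limits what can be seen of the 24 genes not tested, which had at most 8 counts in a library.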

Other observations

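Some members of the TRIM family carry other symbols and so lie outside the 66 genes. Of 7 such genes 4 were tested (Mefv, Pml, Mid1 and Cmya5), and 3 were higher and 0 lower at 10 nM 2 h against untreated cells, where 28.6% of all genes were higher and 30.1% lower. Mefv, the pyrin gene mutated in human familial Mediterranean fever, had 9.67 and 9.5 CPM in untreated cells, 11.8 and 19.9 at 0.03 nM 1 h, 37.3 and 44.2 at 0.03 nM 2 h, 91.1 and 104 at 10 nM 1 h, and 121 and 139 at 10 nM 2 h. Its libraries did not overlap between any of the groups. The change was 2.09 ± 0.22 at 0.03 nM 2 h, 3.35 ± 0.22 at 10 nM 1 h and 3.76 ± 0.23 at 10 nM 2 h (edgeR adjusted p = 0.000372, 3.86e-06 and 8.82e-07). Pml, which organises nuclear bodies, had 116 and 150 CPM at 10 nM 2 h, against 74.2 and 92.0 in untreated cells (0.67 ± 0.17, edgeR adjusted p = 0.00592). Library totals lower the median change of all genes by 0.56 in this comparison, which is close to the rise of Pml. Mid1, a microtubule-bound ligase gene, had 29.1 and 45.9 CPM, against 8.34 and 12.9 (1.82 ± 0.42, edgeR adjusted p = 0.00827). Mid1 was also higher at 0.03 nM 2 h with the experiment as a block (0.64, edgeR adjusted p = 0.00792).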
